A study of Mus musculus with 12 samples.

Results

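Ferroptosis is a form of cell death driven by iron-dependent peroxidation of membrane phospholipids, and the genes described here are 10 of its regulators and markers: Gpx4, Aifm2, Slc7a11, Slc3a2, Acsl4, Lpcat3, Alox15, Ptgs2, Chac1 and Sat1. They were chosen by gene name, and each matched 1 of the 22053 rows of the deposited expression table. RNA sequencing measured their expression in the whole kidney of 12 C57BL/6 wild-type mice, 4 in each of 3 groups. Control mice ate a diet without adenine, and CKD mice ate the otherwise identical diet with 0.2% adenine from 8 to 16 weeks of age, which injures the kidney tubules and gives chronic kidney disease. Both groups received weekly i.p. injections of PBS. CKD+Fe mice ate the adenine diet over the same weeks and were injected i.p. each week with 0.5 g/kg of iron dextran, so that iron was given only on the background of the diet and no control mice received it. Mice are named here by the numbers on their labels.

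In ferroptosis, polyunsaturated fatty acids are activated by the acyl-CoA synthetase ACSL4 and placed into phospholipids by the acyltransferase LPCAT3, where iron, lipoxygenases such as ALOX15 or free-radical chains oxidise them. The selenoprotein GPX4 reduces the resulting lipid hydroperoxides with glutathione, which is made from cysteine that the cell imports as cystine through the exchanger formed by SLC7A11 and SLC3A2. AIFM2, also called FSP1, acts in parallel to GPX4 by keeping coenzyme Q in its radical-trapping form. PTGS2, CHAC1 and SAT1 are stress-induced enzymes whose transcripts are used as markers of, or linked to, this death. The proximal tubule is regarded as the segment of the kidney most prone to it.

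Values are FPKM (read fragments scaled to the length of the transcript and to the total of the library), so levels can be compared between genes per length. Differences were tested with limma on log2(FPKM + 1) over the 13148 genes that reached 1 FPKM in at least 4 mice, with a call where the p adjusted by the Benjamini-Hochberg method was under 0.05. Of the 10 genes, 7 entered this test. Alox15, Ptgs2 and Chac1 were too low to enter it. A single gene in 4 mice against 4 was also tested by an exact two-sided permutation test, whose smallest possible p is 0.0286. As the deposited values stand, most genes were higher in CKD than in control mice, and the median of the log2 fold changes was 0.50 across the table, so changes relative to this median are given as well. Median-of-ratios rescaling of the mice brought that median to 0.01 and quantile normalization to -0.03.

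Several facts of the tissue bear on every value below. In each group 1 mouse stood apart from the others (control 042301, CKD 110310 and CKD+Fe 042702), with 442 to 806 genes at least 2-fold from the mean of the rest of its group against 42 to 225 genes for the other mice. Whole kidney holds all its cell types, and the makeup moved with the diet. The marker counts below stand against 54.6% of all genes tested called higher and 13.3% called lower in CKD than in control mice. All 12 macrophage markers were called higher in CKD than in control mice, and their summed level was 369 to 657 FPKM in control, 1633 to 4420 in CKD and 1739 to 3194 in CKD+Fe mice. All 12 tubule injury markers were called higher as well (717 to 1065 FPKM summed in control, 12362 to 22047 in CKD and 9072 to 16178 in CKD+Fe mice), as were all 10 fibroblast and matrix markers. Single genes weigh heavily in these sums. Spp1 made up 9968 of 12362 FPKM of the injury sum in CKD mouse 021320 and 17694 of 22047 FPKM in CKD mouse 022301. Cd74 made up 267.5 of 369 FPKM of the macrophage sum in control mouse 012811. Of 12 proximal tubule markers, 11 were called lower, and the sum of the 11 with a value in every mouse was 7429 to 9586 FPKM in control, 944 to 1883 in CKD and 1029 to 2832 in CKD+Fe mice. The 2 highest macrophage markers, Cd74 and C1qb, rose by 1.86 and 3.50 on the log2 scale, the injury markers Spp1 and Clu by 4.84 and 3.59, and the collagens Col3a1 and Col1a2 by 3.55 and 2.89, while the proximal tubule genes Miox and Slc27a2 fell by 3.17 and 1.95. Of 12 markers of other nephron segments 1 was called higher (8.33%) and 4 lower (33.3%), Aqp2 among the lower ones (-1.24) and Umod not called (0.45). Of 8 papilla and urothelium markers tested 2 were called higher and 0 lower, the 2 being Krt7 (1.53) and Sprr1a (2.29). These are 25.0% higher, below the share of all genes, and under each rescaling 1 of the 8 was called higher and 0 lower. None of the macrophage or proximal tubule markers was at 0 in any mouse. In such tissue, fewer cells of a type and less RNA per cell cannot be told apart, and the part that these shifts play in the results below was not tested.

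Of the 7 genes tested, Slc7a11, Acsl4, Sat1 and Aifm2 were called higher in CKD than in control mice and Gpx4 was called lower. These are 57.1% of the genes higher and 14.3% lower, where 54.6% of all genes tested were called higher and 13.3% lower, so the counts are near those of the whole table. Slc7a11 reached 1 FPKM in 0 control, 2 CKD and 3 CKD+Fe mice and so entered the test only through the groups in which it was high. Its call is therefore a description, and of the other 6 genes, which reached 1 FPKM in every mouse, 3 were called higher and 1 lower. The groups did not overlap for these 5 genes, as for 44.6% of all genes in the higher and 10.5% in the lower direction. After median-of-ratios rescaling 2 genes were higher and 3 lower (28.8% and 29.3% of all genes), and after quantile normalization 3 and 1 (23.3% and 25.6%). Aifm2 turned negative under both rescalings, and Sat1 lost its call after median-of-ratios rescaling. The changes of Acsl4, Slc7a11 and Gpx4 kept their direction and their call under every alternative in which they were tested. None of the 7 was called in CKD+Fe against CKD mice, where 0.00761% of all genes tested were called higher and 0% lower, and the groups overlapped for each of the 7, as they did not for 2.44% of all genes.

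**Figure D1:**
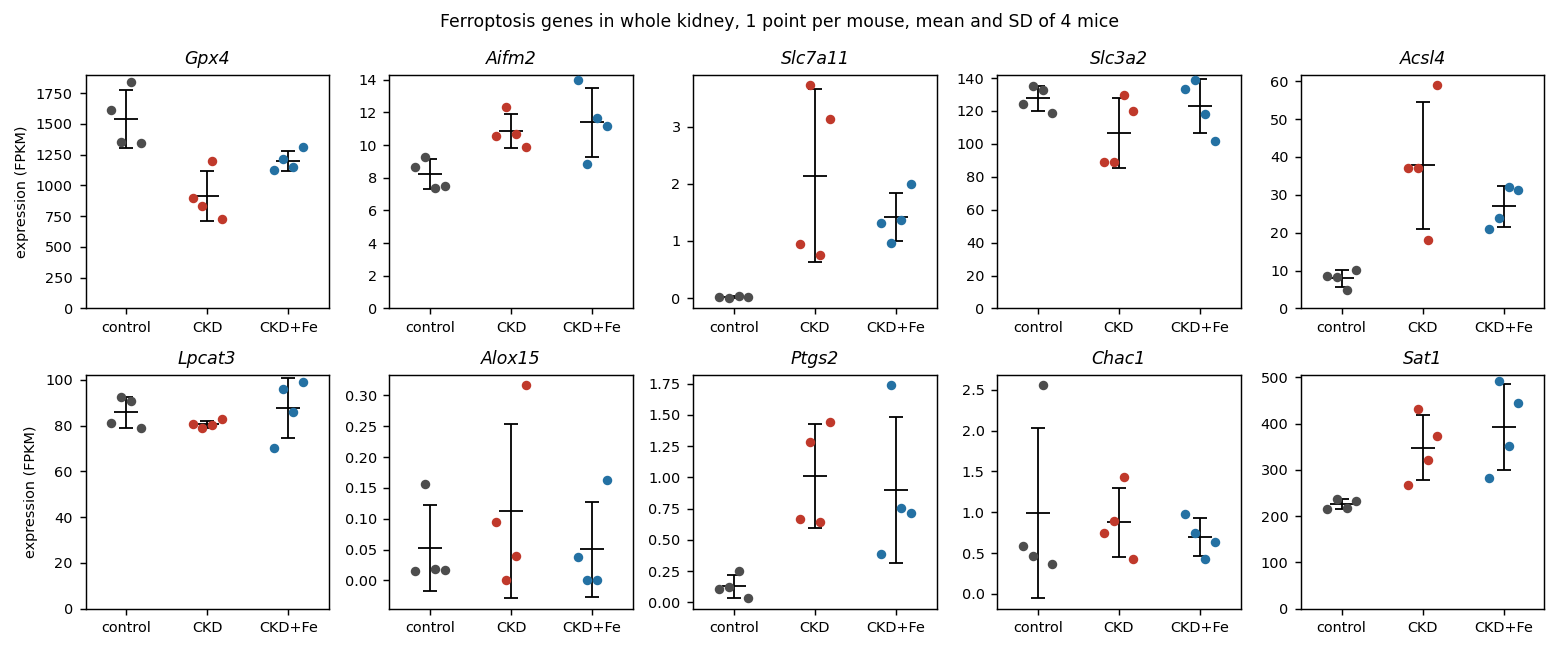
Expression of the 10 genes in FPKM (linear vertical axes, a separate scale for each gene) in control, CKD and CKD+Fe mice. Points are mice, and bars are the mean and SD of 4 mice. Every CKD mouse lies below every control mouse for Gpx4 and above every control mouse for Slc7a11, Acsl4, Ptgs2, Sat1 and Aifm2.

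Gpx4 (ENSMUSG00000075706, chr10:80047166-80056439 on GRCm38, plus strand) was the most abundant of the 10, with a mean in control mice above that of 99.8% of the genes tested. Its level was 1613, 1352, 1844 and 1345 FPKM in the 4 control mice, 901, 833, 1198 and 724 FPKM in the CKD mice, and 1125, 1217, 1152 and 1309 FPKM in the CKD+Fe mice. CKD mice lay below all control mice, and CKD+Fe mice were also below all control mice but overlapped the upper end of the CKD group, where CKD mouse 110310 stood well above the rest. CKD mice differed from control mice by a log2 fold change of -0.76 (SE 0.18, adjusted p = 0.00207, limma), or -1.26 relative to the median of all genes, and 1005 of the 13148 genes had a lower one. It was -1.34 after median-of-ratios rescaling and -0.48 after quantile normalization, and it ran from -0.90 to -0.66 with each mouse left out. Gpx4 has processed pseudogenes in the mouse genome, and how reads shared with them were assigned is not given in the sources used here.

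With iron, the mean of Gpx4 was 1201 ± 81.8 FPKM (SD, n = 4) against 914 ± 203 FPKM (SD, n = 4) in untreated CKD mice. The log2 fold change was 0.42 with a 95% interval from 0.03 to 0.80, an unadjusted p of 0.0371 and an adjusted p of 0.80 (limma), and the exact permutation p was 0.0857. The value was higher in 14 of the 16 pairs of a CKD+Fe with a CKD mouse. The difference thus did not pass the test over all genes. Tissue markers moved in the same comparison without any being called. All 12 tubule injury markers had negative log2 fold changes (median -0.60, 6 of them with an unadjusted p under 0.05, limma). All 12 proximal tubule markers had positive ones (median 0.43, 3 with such a p). Of all genes tested, 6.01% had such a p in either direction. The part of these markers in the Gpx4 difference was not tested. Without the 3 mice that stood apart it was 0.58 with an adjusted p of 0.0787. Against control mice, the CKD+Fe mice had a log2 fold change of -0.35 (SE 0.18, adjusted p = 0.103, limma), with complete separation of the groups (exact permutation p = 0.0286, the smallest possible) and a value that ranged from -0.92 after median-of-ratios rescaling, where it was called, to -0.08 after quantile normalization.

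Aifm2 (ENSMUSG00000020085, chr10:61715263-61739260, plus strand), the second of the suppressor enzymes, was present at 8.65, 9.29, 7.36 and 7.52 FPKM in control mice, 10.5, 12.3, 10.7 and 9.86 FPKM in CKD mice, and 13.98, 8.84, 11.6 and 11.2 FPKM in CKD+Fe mice. All CKD mice exceeded all control mice, and of the CKD+Fe mice only mouse 062910 overlapped the control group. From control to CKD mice the log2 fold change was 0.37 (SE 0.14, adjusted p = 0.0375, limma), which is -0.14 relative to the median of all genes, and it was -0.16 after median-of-ratios rescaling and -0.25 after quantile normalization, uncalled in both. Its call was lost in 6 of the 12 fits that left out 1 mouse, with adjusted p from 0.0256 to 0.104. Against CKD mice, the CKD+Fe mice differed by 0.05 (95% interval -0.26 to 0.37).

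Slc7a11 (ENSMUSG00000027737, chr3:49892526-50443614, minus strand), the transport subunit of the cystine-glutamate exchanger, showed the widest contrast. It was listed at 0.026, 0.00476, 0.0326 and 0.0215 FPKM in control mice. In CKD mice it was 0.950, 3.72, 0.746 and 3.13 FPKM, and in CKD+Fe mice 1.32, 0.971, 1.37 and 1.99 FPKM. All mice on the adenine diet were above all control mice, and the CKD mice fell into a higher pair (022301 and 120102) and a lower pair. The mean was 2.14 ± 1.51 FPKM (SD, n = 4) in CKD mice against 0.0212 ± 0.0119 FPKM in control mice, a 101-fold ratio of means. From the steps between low FPKM values the depth was estimated at 20.1 to 30.9 times 1000000 reads per mouse, which puts the control values at no more than 1.12 to 7.31 reads per mouse and those of CKD mice at no more than 163 to 796 reads, so the size of the ratio rests on a few control reads.

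On the log2(FPKM + 1) scale, which understates the change of so low a gene, Slc7a11 had a log2 fold change of 1.48 from control to CKD mice (SE 0.28, adjusted p = 0.000393, limma), or 0.98 relative to the median. It was 1.35 after median-of-ratios rescaling, 0.91 after quantile normalization and 3.91 with a pseudocount of 0.1. In CKD+Fe against control mice it was 1.22 (SE 0.28, adjusted p = 0.00176, limma). Slc7a11 entered this fit only through the mice on the diet, so both calls are descriptions. In the fit without a filter on low values its adjusted p was 0.00111 in CKD and 0.00397 in CKD+Fe against control mice (limma). Iron-treated and untreated CKD mice overlapped (8 of 16 pairs higher), and the difference was -0.26 with a 95% interval from -0.86 to 0.34. Without the 3 mice that stood apart the value was -0.48 with an adjusted p of 0.383.

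The promoter of Slc7a11 is known for amino acid response elements, through which ATF4 acts when amino acids or cysteine run short, and Chac1 is another known ATF4 target. Promoter windows of 300 bases, 250 before and 50 after the start, were matched in RefSeq (GRCm38.p6) for 9 of the 10 genes, with 4 windows for Gpx4 and 12 in all. The core of this element, TGATGCAA, was searched on both strands (TTGCATCA on the other). It is present in 294 of all 32851 windows (0.895%), and among the 9 genes with a window in those of Slc7a11, with 2 copies, and Chac1, with 1, and in no other. The core of the antioxidant response element bound by NRF2, TGACNNNGC, is present in 12.4% of all windows and in none of the 12 windows. The stretches upstream of the deposited gene positions are shown because both promoters hold the motif; capitals mark it, and the sequences read 5′ to 3′ on the strand of the gene, chr3:50443615-50443863 (minus) for Slc7a11 and chr2:119350992-119351228 (plus) for Chac1.
Slc7a11: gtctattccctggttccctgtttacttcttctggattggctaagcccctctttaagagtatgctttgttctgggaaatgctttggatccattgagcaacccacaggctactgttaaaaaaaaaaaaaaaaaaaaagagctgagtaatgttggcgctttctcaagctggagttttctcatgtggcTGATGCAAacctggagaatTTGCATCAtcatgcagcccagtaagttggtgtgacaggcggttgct
Chac1: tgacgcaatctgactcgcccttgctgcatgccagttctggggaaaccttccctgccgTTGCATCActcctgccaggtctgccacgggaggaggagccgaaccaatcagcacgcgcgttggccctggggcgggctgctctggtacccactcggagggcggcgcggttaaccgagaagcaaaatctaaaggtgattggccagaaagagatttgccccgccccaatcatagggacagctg
In Slc7a11 the copies begin 65 and 46 bases before the first base of the gene, in opposite orientation, and in Chac1 the copy begins 180 bases before it. Such a match describes letters in the window and is not a measurement of binding.

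Chac1 (ENSMUSG00000027313, chr2:119351229-119354381, plus strand), which degrades glutathione, was low in all groups. It was listed at 0.593, 0.463, 2.55 and 0.364 FPKM in control mice, 0.751, 0.894, 1.44 and 0.426 FPKM in CKD mice, and 0.975, 0.746, 0.423 and 0.632 FPKM in CKD+Fe mice. The groups overlapped throughout, and the highest value was that of control mouse 042301, one of the mice that stood apart. On the log2(FPKM + 1) scale CKD and control mice differed by 0.01 (exact permutation p = 1), but this value rests on control mouse 042301. Without it the difference was 0.33 and the ratio of means in CKD to control mice 1.85 in place of 0.883 (exact permutation p = 0.143). CKD+Fe and CKD mice differed by -0.13 (exact permutation p = 0.486). At most 13.6 to 91.3 reads per mouse lie behind these values. The difference between Chac1 and Slc7a11 in their response was not tested.

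Genes of the ATF4 response were measured as well. Atf4 itself had a log2 fold change of 0.28 (adjusted p = 0.263, limma) in CKD against control mice, and Ddit3, a stress gene downstream of it, had a value of 0.30 (adjusted p = 0.357). Atf3, a stress-induced relative, rose by 2.79 (adjusted p = 1.40e-05). Trib3, a further ATF4 target, had a value of 0.62 (adjusted p = 0.061). Ddit4, listed with these genes among the regulators linked to Nrf2, p53 and ATF4, rose by 1.98 (adjusted p = 2.45e-05, limma). Its call held after median-of-ratios rescaling (1.44) and quantile normalization (1.59).

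Slc3a2 (ENSMUSG00000010095, chr19:8706882-8723369, minus strand), the heavy chain that carries SLC7A11 and other amino acid transporters to the membrane, stood at 119 to 135 FPKM in control mice, far above its light chain. It was 88.7, 88.9, 130 and 120 FPKM in CKD mice and 133, 139, 118 and 102 FPKM in CKD+Fe mice. CKD mice 021320 and 022301 lay below all control mice and the other two among them. In CKD mice the log2 fold change from control was -0.28 (SE 0.15, adjusted p = 0.119, limma), and -0.78 relative to the median. It was called lower after median-of-ratios rescaling (-0.85), with array weights, without CKD mouse 110310 (-0.38, adjusted p = 0.0355) and without all 3 mice that stood apart (-0.36, adjusted p = 0.0488). After quantile normalization it was -0.06 and not called (adjusted p = 0.743, limma). With iron it differed from CKD mice by 0.21 (95% interval -0.11 to 0.54).

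Of the other light chains of SLC3A2, Slc7a6 rose from 1.46 ± 0.20 FPKM (SD, n = 4) in control to 8.12 ± 1.63 FPKM in CKD mice (log2 fold change 1.88, adjusted p = 4.53e-07, limma), and Slc7a7, the light chain of basolateral cationic amino acid export in the proximal tubule, fell by 0.64 on the log2 scale (adjusted p = 0.0114), a call lost after quantile normalization (-0.56, adjusted p = 0.0565). Slc3a1, the related heavy chain of the apical cystine transporter and the highest gene of this family in control mice at 307 ± 50.6 FPKM (SD, n = 4), fell by 1.10 (adjusted p = 0.000123). Its light chain Slc7a9 had a value of -0.38 (adjusted p = 0.269, limma), but it was called lower after median-of-ratios rescaling. Slc7a5 was not analysed here. In CKD mice the exchanger chain Slc7a11 thus had higher transcript levels and the apical heavy chain Slc3a1 lower ones, under the deposited scaling and both rescalings.

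Acsl4 (ENSMUSG00000031278, chrX:142317993-142390535, minus strand) had the largest rise among the 7 genes tested on the log2(FPKM + 1) scale. It was 8.46, 8.34, 4.87 and 10.2 FPKM in control mice, 37.0, 37.0, 18.1 and 59.0 FPKM in CKD mice, and 20.97, 23.9, 31.9 and 31.2 FPKM in CKD+Fe mice. No mouse on the adenine diet overlapped the control group, and CKD mice 110310 and 120102 were the lowest and highest of all mice on the diet. The ratio of means in CKD to control mice was 4.74, with a log2 fold change of 2.04 (SE 0.29, adjusted p = 5.02e-05, limma), or 1.54 relative to the median, and 573 of the 13148 genes had a higher one. It was 1.51 after median-of-ratios rescaling and 1.60 after quantile normalization.

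In CKD+Fe against control mice, Acsl4 had a log2 fold change of 1.66 (SE 0.29, adjusted p = 0.000301, limma). The CKD+Fe mice were lower than CKD mice in 12 of 16 pairs, and the difference was -0.38 (95% interval -1.01 to 0.26, adjusted p = 0.958), an interval that holds both no change and a fall of 1 log2 unit. Of the other acyl-CoA synthetases, Acsl5 rose from 29.7 to 61.3 FPKM (log2 fold change 1.03, adjusted p = 2.17e-05, limma). Acsl1, the highest of the family in control mice at 44.0 ± 10.5 FPKM (SD, n = 4), had a value of 0.02 (adjusted p = 0.955). Acsl3, which activates monounsaturated fatty acids, had a value of -0.23 (adjusted p = 0.371, limma). Of these 3 relatives, 1 was called higher and 1 lower after each rescaling. The shares of all genes were 28.8% and 29.3% after median-of-ratios rescaling and 23.3% and 25.6% after quantile normalization.

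Lpcat3 (ENSMUSG00000004270, chr6:124663027-124704418, plus strand) differed from Acsl4 in its pattern. It ranged from 79.0 to 92.5 FPKM in control mice, from 79.0 to 82.7 FPKM in CKD mice and from 70.1 to 98.8 FPKM in CKD+Fe mice. The groups overlapped, and the 4 CKD mice lay within 4 FPKM of each other. CKD mice differed from control mice by a log2 fold change of -0.08 (95% interval -0.35 to 0.18, adjusted p = 0.556, limma). Relative to the median of all genes it was -0.59, and it was -0.66 with a call (adjusted p = 0.00112) after median-of-ratios rescaling and 0.02 after quantile normalization. Iron-treated and untreated CKD mice differed by 0.11 (95% interval -0.16 to 0.37).

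Relatives of Lpcat3 that act on the same class of phospholipids moved otherwise. Of the 6 LPCAT and MBOAT genes tested, 5 were called higher in CKD than in control mice and 0 lower. This is 83.3% higher, where 54.6% of all genes tested were called higher and 13.3% lower. Their median log2 fold change was 1.37, against 0.50 for all genes. After median-of-ratios rescaling 4 were higher and 1 lower (28.8% and 29.3% of all genes), and after quantile normalization 4 and 0 (23.3% and 25.6%). Lpcat2, which is known for platelet-activating factor synthesis in inflammatory cells, rose from 1.02 ± 0.301 to 13.2 ± 3.10 FPKM (SD, n = 4; log2 fold change 2.81, adjusted p = 8.49e-08, limma). Mboat1 and Mboat2, which favour monounsaturated chains and are known to oppose ferroptosis, rose by 1.94 and 0.79 (adjusted p = 2.34e-06 and 0.00385), but Mboat2 was at -0.02 after quantile normalization. Lpcat1 and Lpcat4 rose by 1.32 and 1.42. The exception was Mboat7, which places arachidonic acid into phosphatidylinositol, was the highest of them in control mice at 33.4 ± 2.11 FPKM, and had a value of 0.05 (adjusted p = 0.755).

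Alox15 (ENSMUSG00000018924, chr11:70344152-70352031, minus strand) was barely detected in kidney. It was listed at 0.0154, 0.157, 0.0190 and 0.0178 FPKM in control mice, at 0.0951, 0, 0.0392 and 0.316 FPKM in CKD mice, and at 0.0389, 0, 0 and 0.162 FPKM in CKD+Fe mice. The groups overlapped, and no mouse had more than an estimated 16.8 reads. CKD and control mice differed by 0.07 on the log2(FPKM + 1) scale (exact permutation p = 0.543), and by -0.01 without CKD mouse 120102. Among the other lipoxygenases, Alox5 rose from 0.238 to 1.38 FPKM (log2 fold change 0.91, adjusted p = 0.00277, limma) and its partner Alox5ap, the highest gene of this family in control mice, from 9.33 ± 1.69 to 63.0 ± 21.9 FPKM (SD, n = 4; 2.58, adjusted p = 1.01e-06); both are known from leukocytes, and both rises stand beside the higher macrophage markers. Alox5 reached 1 FPKM in 0 control, 2 CKD and 2 CKD+Fe mice, so it entered the test only through the mice on the diet, and its call was lost after quantile normalization (0.17, adjusted p = 0.536).

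Ptgs2 (ENSMUSG00000032487, chr1:150100031-150108227, plus strand), the inducible cyclooxygenase, was low in all groups. It was 0.107, 0.118, 0.247 and 0.0329 FPKM in control mice, 0.667, 1.28, 0.646 and 1.45 FPKM in CKD mice, and 0.389, 1.74, 0.758 and 0.714 FPKM in CKD+Fe mice. All mice on the diet were above all control mice, with an 8-fold ratio of means in CKD and 7.12-fold in CKD+Fe mice. On the log2(FPKM + 1) scale the difference was 0.82 in CKD against control mice and 0.71 in CKD+Fe against control mice (exact permutation p = 0.0286 for both, the smallest possible), and in the fit without a filter on low values both passed (adjusted p = 0.00382 and 0.00894, limma). CKD+Fe and CKD mice differed by -0.10 (exact permutation p = 0.743). Of its 5 relatives, Ptgs1, Ptges and the prostaglandin-degrading Hpgd were called higher in CKD than in control mice (log2 fold changes 1.11, 0.79 and 0.67), which is 60.0% of them, near the 54.6% of all genes. The call of Ptgs1 held under both rescalings, and those of Ptges and Hpgd were lost under both. Ptges3, the highest in control mice, had a value of -0.13 (adjusted p = 0.412), and it and Ptges2 were called lower after median-of-ratios rescaling (-0.70 and -0.71).

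Sat1 (ENSMUSG00000025283, chrX:155213132-155216449, minus strand), the rate-limiting enzyme of polyamine breakdown and a p53 target linked to lipid peroxidation, was the second most abundant of the 10. It was 216, 237, 217 and 234 FPKM in control mice, 268, 430, 321 and 373 FPKM in CKD mice, and 283, 491, 352 and 445 FPKM in CKD+Fe mice. Every mouse on the diet was above every control mouse. From control to CKD mice the log2 fold change was 0.60 (SE 0.19, adjusted p = 0.0109, limma), but 0.10 relative to the median, 0.02 after median-of-ratios rescaling (adjusted p = 0.921) and 0.97 after quantile normalization. In CKD+Fe against control mice it was 0.76 (SE 0.19, adjusted p = 0.00269), and 0.20 after median-of-ratios rescaling (adjusted p = 0.415). Iron-treated and untreated CKD mice differed by 0.16 (95% interval -0.23 to 0.56).

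**Figure D2:**
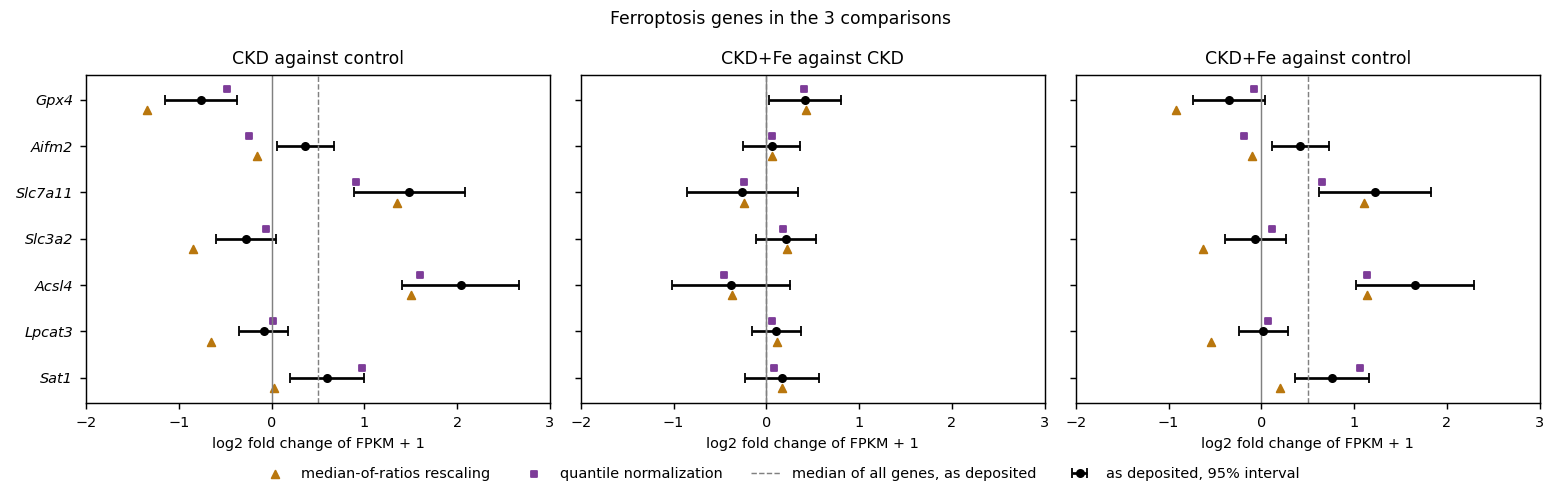
Log2 fold change of FPKM + 1 (horizontal axes) of the 7 genes tested in the 3 comparisons. Black points with bars are the deposited values with 95% intervals, triangles are values after median-of-ratios rescaling, squares after quantile normalization, and the dashed line is the median of all genes as deposited. In CKD against control mice Acsl4, Slc7a11 and Gpx4 lie away from 0 on the same side under all 3 scalings, while Aifm2 changes side; in CKD+Fe against CKD mice the Gpx4 interval, from 0.03 to 0.80, is the one that leaves out 0.

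As deposited, the relatives of Gpx4, Aifm2, Chac1 and Sat1 included genes called in the opposite direction, and genes called where they were not or could not be tested. Gpx3, the secreted plasma glutathione peroxidase made by proximal tubule, was the highest of its family in control mice (43345 ± 5657 FPKM, SD, n = 4). It was called lower in CKD mice by 0.93 on the log2 scale (adjusted p = 0.0212, limma), but it was called higher, at 0.71, after quantile normalization. Gpx7 and Gpx8, peroxidases of the endoplasmic reticulum, rose by 1.99 and 1.20 (adjusted p = 3.76e-05 and 0.000267). Gpx7 went from 2.27 ± 1.15 to 12.1 ± 4.67 FPKM and Gpx8 from 17.6 ± 7.82 to 39.6 ± 4.43 FPKM (SD, n = 4), under all 3 scalings in the same direction.

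Aifm1, the mitochondrial apoptosis-inducing factor, and Aifm3 fell by 1.01 and 1.36 on the log2 scale (adjusted p = 0.000175 and 6.30e-06, limma), where Aifm2 had its small positive value. That value was -0.14 relative to the median of all genes, and -0.16 and -0.25 after the rescalings. The directions of Aifm2 and these relatives were thus opposite only without rescaling. All 3 other enzymes of the gamma-glutamyl group fell, where Chac1 was too low to be tested with them: Ggt1, the brush-border enzyme that starts glutathione breakdown outside the cell, from 1103 ± 191 to 230 ± 92.0 FPKM (SD, n = 4; log2 fold change -2.33), Ggct by 2.27 and Chac2 by 1.53. Aifm1, Aifm3 and these 3 gamma-glutamyl enzymes were all called lower under each of the 3 scalings. Of all genes tested, 13.3% were called lower as deposited, 29.3% after median-of-ratios rescaling and 25.6% after quantile normalization. Of the 7 polyamine enzymes beside Sat1, 2 were called higher (Smox, the spermine oxidase, by 1.94, and Paox by 0.99) and 2 lower. Odc1, which makes putrescine and was the highest of them in control mice at 487 ± 190 FPKM (SD, n = 4), fell by 2.27 (adjusted p = 4.40e-05), and Sat2 fell by 0.72 (adjusted p = 0.00215). The 2 higher and 2 lower are 28.6% each of the 7, where 54.6% of all genes tested were called higher and 13.3% lower. After median-of-ratios rescaling 2 of the 7 were higher and 5 lower (28.8% and 29.3% of all genes). After quantile normalization 1 was higher and 4 lower (23.3% and 25.6%), with the call of Paox lost (0.16, adjusted p = 0.496, limma).

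A wider list of 81 other genes of the pathway, of which 79 were tested, had 24 called higher and 18 called lower in CKD than in control mice, with a median log2 fold change of 0.10 against 0.50 for all genes. These are 30.4% higher and 22.8% lower, where 54.6% of all genes tested were called higher and 13.3% lower. After median-of-ratios rescaling 14 were higher and 41 lower (17.7% and 51.9%, against 28.8% and 29.3% of all genes). After quantile normalization 16 were higher and 22 lower (20.3% and 27.8%, against 23.3% and 25.6%). By group, 7 of 13 glutathione and selenium genes were called lower and 1 higher (median -0.79), which is 53.8% lower where 13.3% of all genes were. After the rescalings 11 and 10 were lower (84.6% and 76.9%, against 29.3% and 25.6% of all genes). Of 13 regulators linked to Nrf2, p53 and ATF4, 7 were called higher and 0 lower (median 0.76), and these 53.8% are near the 54.6% of all genes called higher. After median-of-ratios rescaling 4 of these regulators were higher and 3 lower (30.8% and 23.1%, against 28.8% and 29.3% of all genes). After quantile normalization 5 were higher and 0 lower (38.5% and 0%, against 23.3% and 25.6%). Among 12 radical-trapping and other GPX4-independent genes 4 were higher and 1 lower, and among 15 lipid peroxidation genes 3 higher and 6 lower. Among 17 iron genes 5 were higher and 4 lower, and among 9 genes of amino acid supply and mitochondria 4 higher and 0 lower. In each of these groups the share higher was below the 54.6% of all genes. The share lower was above 13.3% for the lipid peroxidation and iron genes only. After median-of-ratios rescaling the counts, in this order, were 3 higher and 5 lower, 1 and 7, 3 and 10, and 3 and 5. The shares higher were 25.0%, 6.67%, 17.6% and 33.3%, against 28.8% of all genes. The shares lower were 41.7%, 46.7%, 58.8% and 55.6%, against 29.3% of all genes. After quantile normalization the counts were 3 and 2, 1 and 7, 3 and 3, and 4 and 0. Here the shares higher were 25.0%, 6.67%, 17.6% and 44.4%, against 23.3% of all genes. The shares lower were 16.7%, 46.7%, 17.6% and 0%, against 25.6%.

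The 6 largest falls included 4 genes that supply GPX4 with its substrate or its selenium. Cbs, the first step from homocysteine towards cysteine, fell from 116 ± 10.4 to 21.7 ± 10.9 FPKM (SD, n = 4; log2 fold change -2.48, adjusted p = 1.26e-05, limma). Gclm, the modifier subunit of the rate-limiting enzyme of glutathione synthesis, fell by 1.64, and Gss, glutathione synthetase, by 1.62. Sephs2, which makes the selenium donor for selenoproteins such as GPX4, fell by 1.42 (adjusted p = 4.38e-05). The other two were Agps, an enzyme of ether lipid synthesis that yields peroxidation-prone plasmalogens (-1.67), and Hsd17b11, a lipid droplet enzyme (-1.58). All 6 were negative under both rescalings.

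The 6 largest rises were Cdkn1a, the p53-induced cell cycle inhibitor (3.01, adjusted p = 1.93e-05, limma), Atf3 (2.79), Trf, which encodes transferrin (2.77), Hspb1, a small heat shock protein that limits iron uptake (2.09), Ddit4, a stress-induced inhibitor of mTORC1 (1.98), and Mboat1 (1.94). Cdkn1a went from 5.34 ± 4.92 to 42.9 ± 12.4 FPKM and Trf from 18.1 ± 7.56 to 125 ± 33.9 FPKM (SD, n = 4). All 6 were positive under both rescalings.

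**Figure D3:**
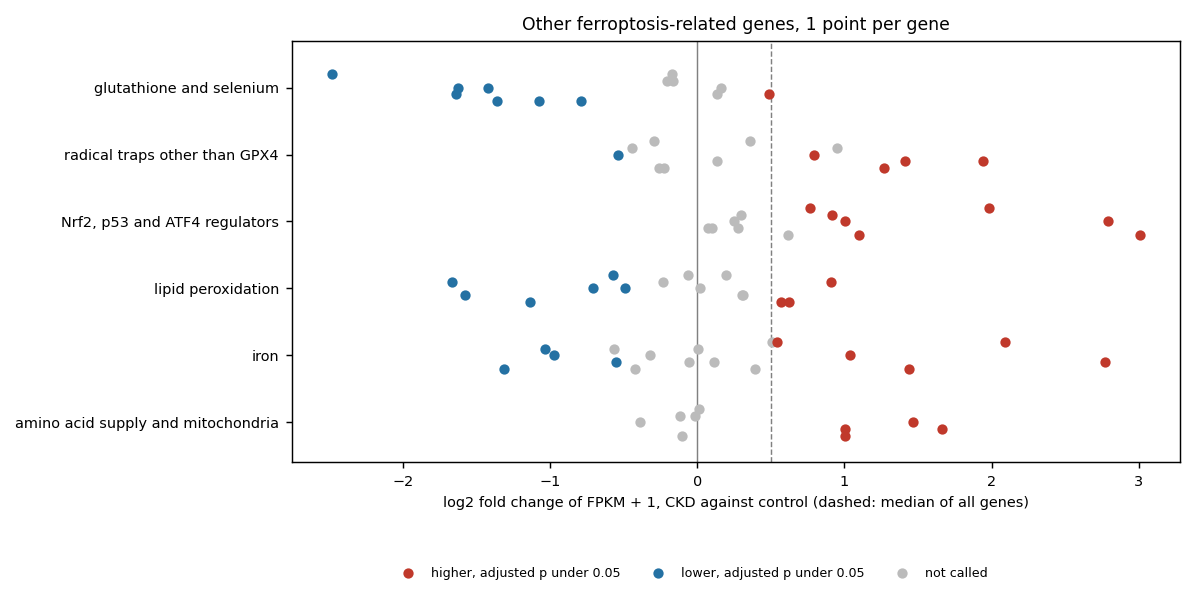
CKD against control mice on the horizontal axis (log2 fold change of FPKM + 1) of the other ferroptosis-related genes, 1 point per gene and 1 row per group, coloured by call. The dashed line is the median of all genes, 0.50. Points of the glutathione and selenium row reach furthest to the left (-2.48) and those of the regulator row furthest to the right (3.01).

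Iron dextran is expected to be handled through ferritin and the labile iron pool, and the comparison of CKD+Fe with CKD mice asked whether it moved these genes. None of the 79 other pathway genes was called in either direction with limma, 3 had an unadjusted p under 0.05, and 6.01% of all genes tested had one. The lowest p belonged to Nqo1, a quinone reductase that regenerates radical-trapping quinols, with 60.4, 39.6, 35.8 and 55.8 FPKM in CKD mice and 70.1, 83.3, 136 and 169 FPKM in CKD+Fe mice. The 4 CKD+Fe values all exceeded the 4 CKD values, as for 1.35% of all genes tested, and the log2 fold change was 1.18 (SE 0.25, unadjusted p = 0.000353, adjusted p = 0.254). It passed with array weights (adjusted p = 0.0206) and without the 3 mice that stood apart (1.26, adjusted p = 0.0455). Across the alternatives other than those leaving out a single mouse, its adjusted p ran from 0.0206 to 0.673. With each mouse left out the adjusted p (limma) ran from 0.0549 to 0.925, with a call in 0 of the 12 fits.

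Ftl1, the ferritin light chain, was 1646, 2135, 3086 and 1626 FPKM in CKD mice and 5588, 2816, 4088 and 3172 FPKM in CKD+Fe mice. The groups overlapped through CKD mouse 110310 and CKD+Fe mouse 062910, and the log2 fold change was 0.88 (SE 0.26, unadjusted p = 0.0051, adjusted p = 0.479, limma). It passed with array weights (1.01, adjusted p = 0.0292) and not without the 3 mice that stood apart (0.89, adjusted p = 0.0624), and its adjusted p ran from 0.0292 to 0.75 across the alternatives other than those leaving out a single mouse. With each mouse left out the lowest adjusted p (limma) was 0.182, with a call in 0 of the 12 fits. Alox12 (0.32, unadjusted p = 0.0471) and Tmem164 (-0.30, unadjusted p = 0.055), which is linked to autophagy in ferroptosis, followed. Fth1, the ferritin heavy chain, differed by 0.10 between these groups.

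In CKD+Fe against control mice, Acsl4, Sat1, Aifm2 and, through the same filter, Slc7a11 were called higher and none of the 7 genes lower, where 54.4% of all genes tested were called higher and 11.0% lower. The groups did not overlap for Acsl4, Slc7a11 and Sat1 (50.4% of all genes in the higher direction) and for Gpx4 (9.85% in the lower). After median-of-ratios rescaling 2 were higher and 3 lower (27.7% and 27.5% of all genes). Aifm2 was at -0.10 and -0.19 under the rescalings in this comparison too. This comparison shares its control mice with that of CKD and its CKD+Fe mice with that of iron, so the 3 comparisons are not independent of each other.

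The 4 CKD mice did not hold the same order for all genes. Mouse 110310 had the highest Gpx4 (1198 FPKM) and the lowest Acsl4, Slc7a11 and Ptgs2 of its group, and mouse 120102 the lowest Gpx4 (724 FPKM) and the highest Acsl4 (59.0 FPKM) and Ptgs2 (1.45 FPKM). The summed macrophage markers were 4420 FPKM in mouse 110310, the highest of all, and 1633 FPKM in mouse 120102, the lowest of the CKD group. Both ranks rest on Cd74, at 2760 FPKM in mouse 110310 and 742 FPKM in mouse 120102. Without Cd74 the sum of the other 11 markers was 1660 FPKM in mouse 110310 and 1897 FPKM in mouse 022301. It was 891 FPKM in mouse 120102 and 884 FPKM in mouse 021320. Mouse 022301 had the highest C1qb (587 FPKM) and Slc7a11 (3.72 FPKM) of the group. The part of macrophages in the levels of these genes was not tested. The summed tubule injury markers were 20380 FPKM in mouse 110310 and 21365 FPKM in mouse 120102.

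The genes whose deviations from the group means were most like those of Gpx4 over the 12 mice were Ndufs6 (Pearson r = 0.960), Uqcr10 (0.941) and Ndufb9 (0.941), all subunits of the mitochondrial respiratory chain. In control mice they ranged from 342 to 515, from 959 to 1506 and from 557 to 757 FPKM, and CKD mouse 110310 was the highest of its group for each. For Slc7a11 they were Clec4e (0.980), the receptor Mincle of activated macrophages, Tifa (0.968), an adaptor of NF-κB signalling, and Acod1 (0.958), the itaconate-producing enzyme of activated macrophages. Clec4e was 2.62, 11.5, 2.24 and 9.003 FPKM in the CKD mice and was listed at 0 in 3 of the 4 control mice, and Acod1 was 1.69, 9.98, 2.23 and 6.27 FPKM in the CKD mice. Both shared the higher pair of CKD mice, 022301 and 120102, with Slc7a11. In control mice Slc7a11 was at most 0.0326 FPKM, Clec4e at most 0.135 FPKM and Acod1 at most 0.0444 FPKM. The r with Slc7a11 thus rest mainly on the mice on the diet, through which Clec4e and Acod1 also entered the test. The r given for Gpx4 and Slc7a11 are the 3 highest among the genes tested for each. They are descriptions of 12 libraries scaled to their own totals, and nothing follows from them about shared control.

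**Figure D4:**
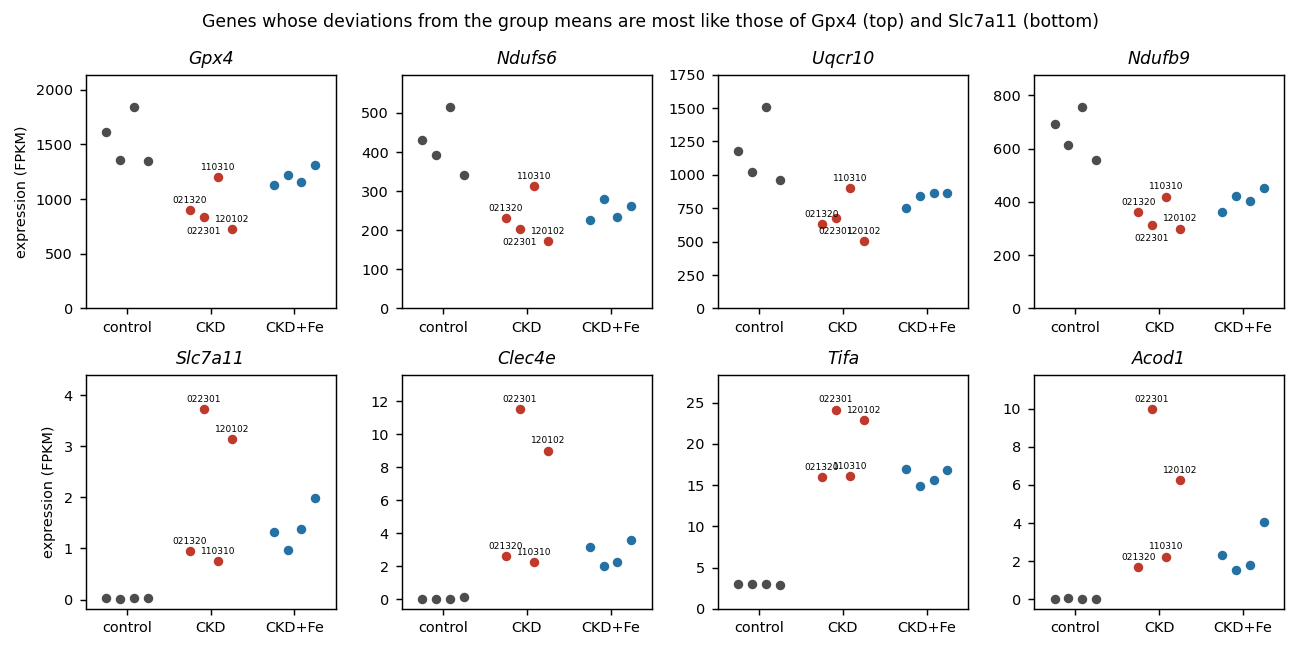
Expression in FPKM (linear axes) of Gpx4 and Slc7a11, each beside the 3 genes whose deviations from the group means had the highest Pearson r with it over 12 mice. Points are mice, and CKD mice carry their numbers. Mouse 110310 is the highest CKD mouse in each panel of the upper row, and mice 022301 and 120102 are the 2 highest in each panel of the lower row.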

How the data were processed

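Total RNA of whole kidney was made into stranded mRNA libraries by the authors, 1 per mouse, and sequenced with single-end reads. The submitters' processing notes name bcl2fastq 2.19, STAR 2.5.2, Cufflinks 2.1.1 and the build GRCm38. The authors deposited FPKM values, 1 per protein-coding gene and mouse; 30 values in 17 genes, none of them among the 10 genes, are marked as failed and were treated as missing. Read counts were not used here. Depth was estimated from the steps that 1 read gives in low FPKM of genes with 1 transcript (GENCODE M21 lengths, a mean fragment of 200 bases assumed), and the bounds on reads use the longest listed transcript of each gene and cover neither counting error nor multi-mapped reads.

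Tests used limma 3.58.1 (R 4.3.3) on log2(FPKM + 1), with a variance trend and all 12 mice in 1 fit, for the 13148 genes that reached 1 FPKM in 4 mice or more. Its p values are two-sided and adjusted over these genes by the Benjamini-Hochberg method. The fit was tested on simulated data. The labels name each mouse and its treatment but no batch and no litter, and p values measure the spread between these mice. The alternatives were a pseudocount of 0.1, no filter, a mean of at least 5 FPKM, 2 rescalings, only the 2 groups compared, array weights, no variance trend, a threshold of 0.5 as in the study's RNA methods, each mouse left out, and, chosen after seeing the data, leaving out the 3 mice that stand apart.

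The 10 genes, the lists and the markers were chosen with earlier results of these data known. Named were all 10; of the other pathway genes the 6 largest called rises and 6 largest called falls in CKD mice and the 4 lowest p with iron; of each family the highest gene in control mice and those called opposite to its gene; the 2 highest markers of each list; and the 3 genes most like Gpx4 and Slc7a11. Other genes named beside them (Atf4, Ddit3, Trib3, Fth1, Acsl3, Acsl5, Slc7a7, Slc7a9, Ptgs1, Ptges, Ptges2, Hpgd, Smox, Paox, Alox5) were chosen from the lists after their values were seen. Figures were drawn with matplotlib 3.10.9.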

Additional observations from a re-analysis of the deposited data

Results flagged for a closer look

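In 30 groups of 4 mice (10 genes in 3 groups), 2 single mice lay far from the rest of their group by Dixon's test, where chance flags about 1 group in 20. Control mouse 042301 had 2.55 FPKM of Chac1, with a gap to the next mouse of 0.895 of the group's range, and it is 1 of the 3 mice that stood apart over all genes. Control mouse 012822 had 0.157 FPKM of Alox15, with a gap of 0.975 of the range, which is at most 9.04 estimated reads. Their causes were not tested.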

How the results depend on the processing

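No paired analysis was possible because the groups share no replicate numbers. In CKD against control mice, 4 of the 7 ferroptosis genes were called higher and 1 lower. After median-of-ratios rescaling 2 were higher and 3 lower. With array weights, without the 3 mice that stand apart and at a threshold of 0.5, 2 were lower in each case, and with each mouse left out 3 to 4 were higher and 1 to 2 lower. In CKD+Fe against control mice, 4 were higher and 0 lower, against 2 and 3 after median-of-ratios rescaling, 1 lower with array weights and 1 lower at the threshold of 0.5, and 3 to 4 higher and 0 lower with each mouse left out. With iron no ferroptosis gene was called in any setting that kept the threshold, nor at 0.5. The cause of these moves was not tested, apart from the shift of the whole table that rescaling removes.

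Over all genes, 7181 were higher and 1748 lower in CKD mice, against 3781 and 3856 after median-of-ratios rescaling, 3060 and 3363 after quantile normalization, 2681 lower at the threshold of 0.5, and 6574 to 7348 higher and 1550 to 1876 lower with each mouse left out. In CKD+Fe against control mice 7159 were higher and 1442 lower, against 3636 and 3618, 2605 and 2967, 4749 higher among genes with a mean of at least 5 FPKM, and 2388 lower at 0.5, and 6570 to 7512 and 1238 to 1542 with each mouse left out. With iron 1 gene was higher and 0 lower (limma, 790 at an unadjusted p under 0.05). It was 0 higher with a pseudocount of 0.1, without a filter and with only the 2 groups, 91 higher and 69 lower with array weights, 51 and 33 without the 3 mice that stand apart, 92 and 72 at 0.5, and 1 lower without a variance trend; with each mouse left out it was 0 to 9 higher and 0 to 4 lower, the most without CKD+Fe mouse 042702. Of the other pathway genes, 24 higher and 18 lower became 14 and 41 after median-of-ratios rescaling and 37 and 30 at 0.5, and 23 to 26 and 17 to 21 with each mouse left out.

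Aifm2 turned to -0.16 (median-of-ratios) and -0.25 (quantile) in CKD mice and to -0.10 and -0.19 in CKD+Fe against control mice. Its call in CKD mice was lost without control mouse 012811, 042301 or 042310, CKD mouse 021320 or 022301, or CKD+Fe mouse 111710, and that in CKD+Fe against control mice without control mouse 042310, CKD+Fe mouse 042702 or the 3 mice that stand apart. Its difference with iron was -0.0472 without the 3 mice that stand apart and ran from -0.0413 to 0.16 with each mouse left out. Slc3a2 in CKD+Fe against control mice was 0.11 after quantile normalization and ran from -0.12 to 0.0225 with each mouse left out. Lpcat3 was 0.0159 after quantile normalization in CKD mice, and in CKD+Fe against control mice -0.54 after median-of-ratios rescaling and from -0.0396 to 0.12 with each mouse left out. Slc7a11 could not be fitted among genes with a mean of at least 5 FPKM. The fewest estimated reads lay behind Alox15 and the control values of Slc7a11 and Ptgs2.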
